A study of Drosophila melanogaster with 14 samples.

Results

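A set of 58 probe sets whose transcripts cycled in fly heads with a maximum in the daytime was examined in fmn and control flies. The members were selected on their rhythm: log2 signals were fitted in each genotype with a cosine and a sine of a 24 h period, and a member needed a mean signal of at least 100 over the 14 arrays, an amplitude of at least 0.3 on the log2 scale and an R2 of at least 0.7 in both genotypes, peaks within 3 h of each other, and a control peak from ZT 2 to before ZT 8. ZT is zeitgeber time, counted in hours from lights on. The core clock genes per, tim, Clk, cyc, vri, Pdp1, cwo and cry were left out, of which cry was the 1 gene that met the other criteria. The 58 members were 0.664% of the 8732 probe sets with a mean signal of at least 100, and 18769 probe sets were on the array besides its controls. They named 53 genes (CG15213 and Ca-Ma2d by 2 probe sets each), and 3 probe sets (1626597_at, 1625219_at and 1637510_s_at) had no named gene. Because the rhythm chose the members, their peak times, amplitudes and differences between day and night are described here without a test.

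RNA came from heads of fmn flies, which lack a working dopamine transporter (DAT) and sleep little, and of control flies of the strain w1118, to which fmn had been backcrossed for 5 generations. Both genotypes were kept at 25 °C through 4 cycles of 12 h light and 12 h dark (LD) and taken every 4 h from ZT 0 to ZT 24, with about 400 heads of males and females pooled for each RNA. Each pool was hybridized to 1 Affymetrix Drosophila Genome 2.0 array, so that each genotype has 7 arrays and no time point was repeated, although ZT 0 and ZT 24 fall at the same phase. The heads were shaken off frozen flies and sieved.

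In flies, as in other animals, a molecular clock of transcription factors that repress their own genes drives daily cycles in many other transcripts, and light, feeding and activity drive further ones. Fly heads contain the brain and the compound eyes, and also fat body, muscle and cuticle, so that a head transcript may come from neurons or from metabolic tissue. Enzymes of detoxification and of amino acid breakdown are known to be expressed in the head fat body, where many transcripts cycle with the time of feeding.

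The DAT signal was between 1.43 and 14.5 on the fmn arrays and between 471 and 619 on the control arrays. The study also reported that DAT was barely detectable in fmn. Between 8601 and 8896 probe sets of the fmn arrays and between 8646 and 8843 of the control arrays had a signal of at least 100. All 6 listed markers of fat body were above 100 on every array. The summed signal of the neuron markers was 5835 to 6446 on the control arrays. It was 5104 on the fmn array of ZT 12 and 7118 to 7674 on the other fmn arrays, above every control array. The median log2 signal of the neuron markers was 8.92 to 9.51 in fmn and 9.10 to 9.60 in control. In bulk heads, a lower number of cells of a type and a lower amount of RNA per cell cannot be told apart. Transcripts of other organs appeared on 3 arrays. Markers of the male tract (testis and accessory gland, 16 genes) reached a signal of 100 for 14 genes on the fmn ZT 4 array and for 14 on the control ZT 0 array, and for none elsewhere. Of 13 ovary and eggshell genes, 6 reached 100 on the fmn ZT 8 array and none elsewhere. The summed signal of 16 gut enzymes was 4139 on the fmn ZT 4 array, 13577 on the fmn ZT 8 array and 6049 on the control ZT 0 array, against 306 to 383 on the others. The fmn arrays of ZT 4 and ZT 8 are those on which most members were high, so values without these 3 arrays are given for the members and counts they moved most. Without them 47 of the 58 members still met the rule, and 11 did not: dmGlut, CG11425, Nt5a, RabX5, CG1208, tx, GstD10, Lmpt, TwdlT, 1625219_at and 1 probe set of Ca-Ma2d. Of the named members, the fmn amplitude then moved by over 1.5 times for CG9377 (1.51), CG15213 1627583_at (0.79), 1637510_s_at (0.61), Fs (0.60), 1626597_at (0.56), dmGlut (0.43) and CG1698 (0.33), in a fit of 5 fmn arrays. In the same fit the fmn peak of named members moved by more than its standard error for Lmpt (to ZT 23.1), TwdlT (ZT 1.66), Ugt302C1 (ZT 1.69), Cpr72Ec (ZT 3.30), Ugt35A1 (ZT 3.37), CG15213 1627583_at (ZT 4.40) and CG11951 (ZT 5.32).

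**Figure D1:**
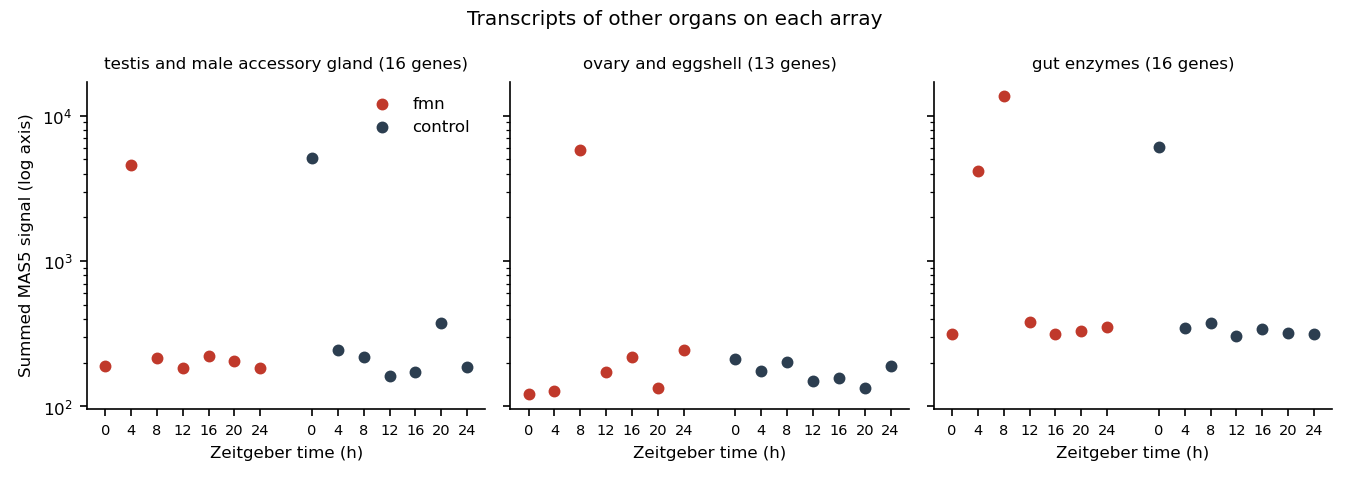
Summed MAS5 signal (log axis) of 3 lists of genes that mark other organs, on each of the 7 fmn arrays (red) and the 7 control arrays (dark) from ZT 0 to ZT 24. The fmn arrays of ZT 4 and ZT 8 and the control array of ZT 0 stand apart, with gut sums of 4139, 13577 and 6049.

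The members had a median amplitude of 0.43 in fmn heads (0.30 to 1.88) and 0.45 in control heads (0.31 to 1.98), which corresponds to a median change between peak and trough of 1.82-fold in fmn and 1.86-fold in control. A change of at least 2-fold was fitted for 12 members in fmn and 18 in control. The highest array was that of ZT 4 for 26 members in each genotype. The lowest was that of ZT 16 for 39 members in fmn and 40 in control, and that of ZT 20 for 12 members in each. Most members were thus lowest early in the night, and all 58 had a higher signal at ZT 4 than at ZT 16 and at ZT 20 in both genotypes. Relative to the mean of its own 7 arrays, the median member stood at 0.33 at ZT 4 and −0.44 at ZT 16 in fmn, and at 0.36 and −0.46 at these times in control (log2 scale). The repeated phase gives a measure of the error: the ZT 24 and ZT 0 signals of a member differed by a median of 0.14 in fmn and 0.16 in control on the log2 scale, and by at least 0.32 for 10 members in fmn and 9 in control.

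**Figure D2:**
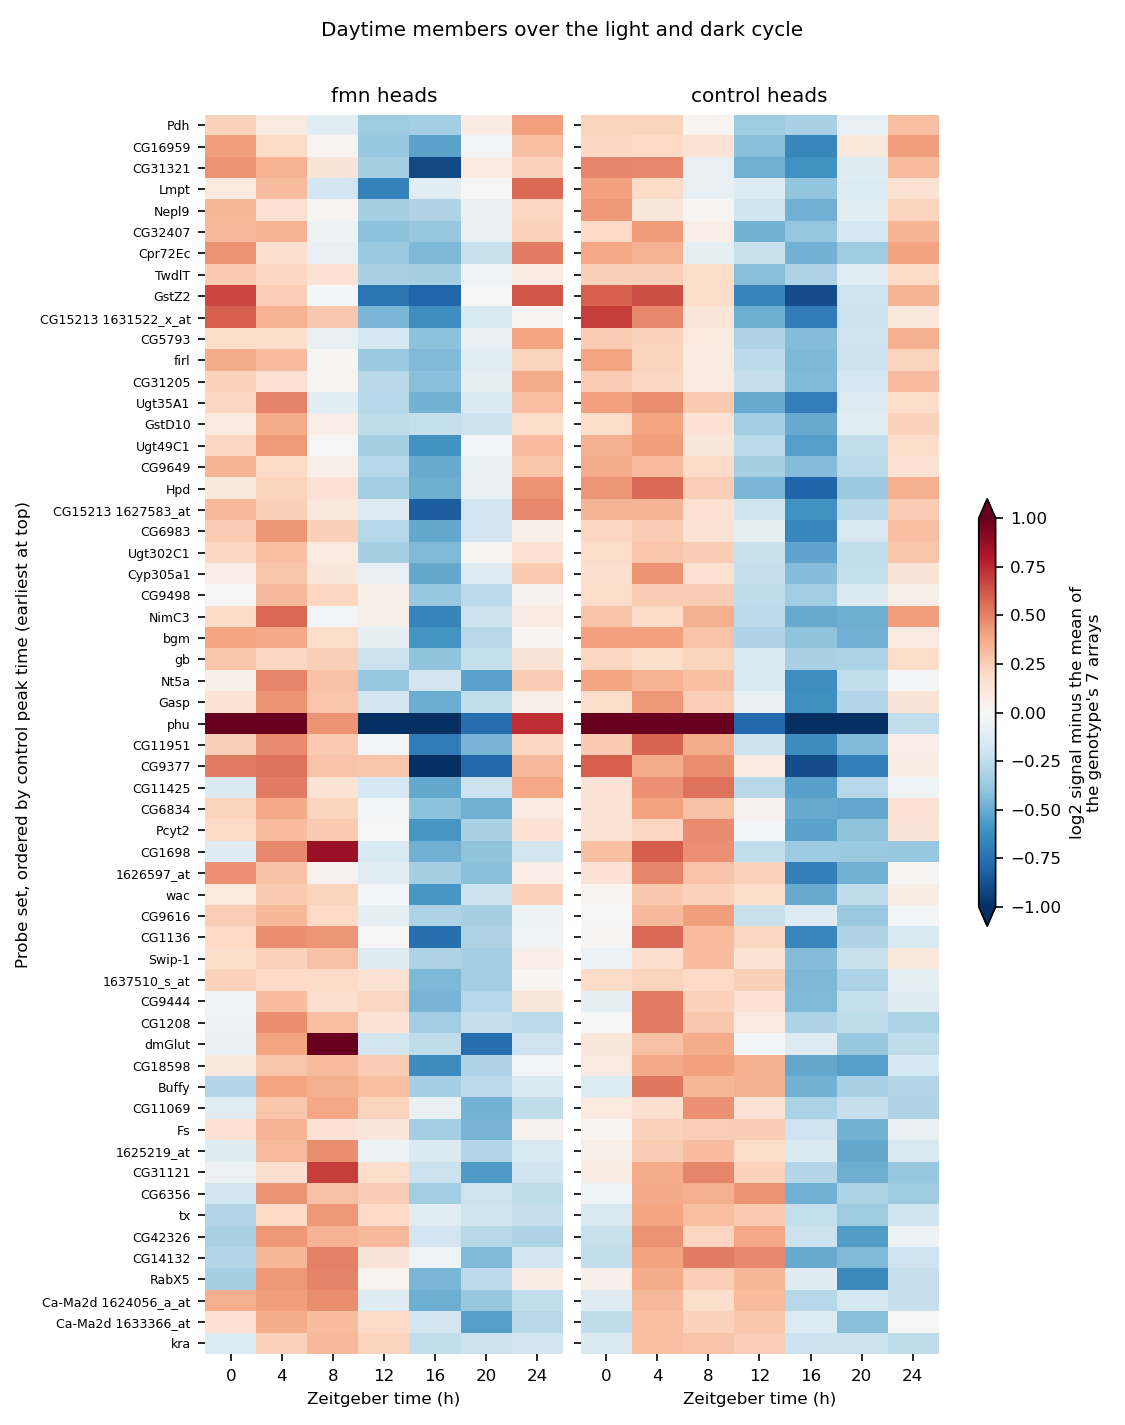
Log2 signal of each of the 58 members at ZT 0 to ZT 24, in fmn heads (left) and control heads (right), relative to the mean of the 7 arrays of that genotype, with members ordered by their peak in control. All members are high at ZT 4 and low at ZT 16, and those with the latest peaks, at the bottom, are also high at ZT 8 and ZT 12.

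The amplitude of phu, which encodes an alkaline phosphatase, exceeded that of every other member. Its signals in fmn heads, from ZT 0 through each 4th hour to ZT 24, were 1490, 1086, 591, 160, 101, 256 and 723. In control heads they were 524, 612, 494, 111, 47.6, 69.3 and 161. Both series were high in the light phase and lowest at ZT 16, and the fmn signal was above the control signal at all 7 times. The fitted amplitude was 1.88 ± 0.23 in fmn and 1.98 ± 0.35 in control (standard error of the fit, 7 arrays), a 13.5-fold and a 15.6-fold change from trough to peak. The fmn peak was at ZT 3.04 ± 0.466 h and the control peak at ZT 4.77 ± 0.613 h. The control ZT 0 array, 1 of the 3 with transcripts of other organs, was 1.70 (log2) above the control ZT 24 array for phu. Without it the control amplitude was 1.91 and the control peak ZT 5.36.

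**Figure D3:**
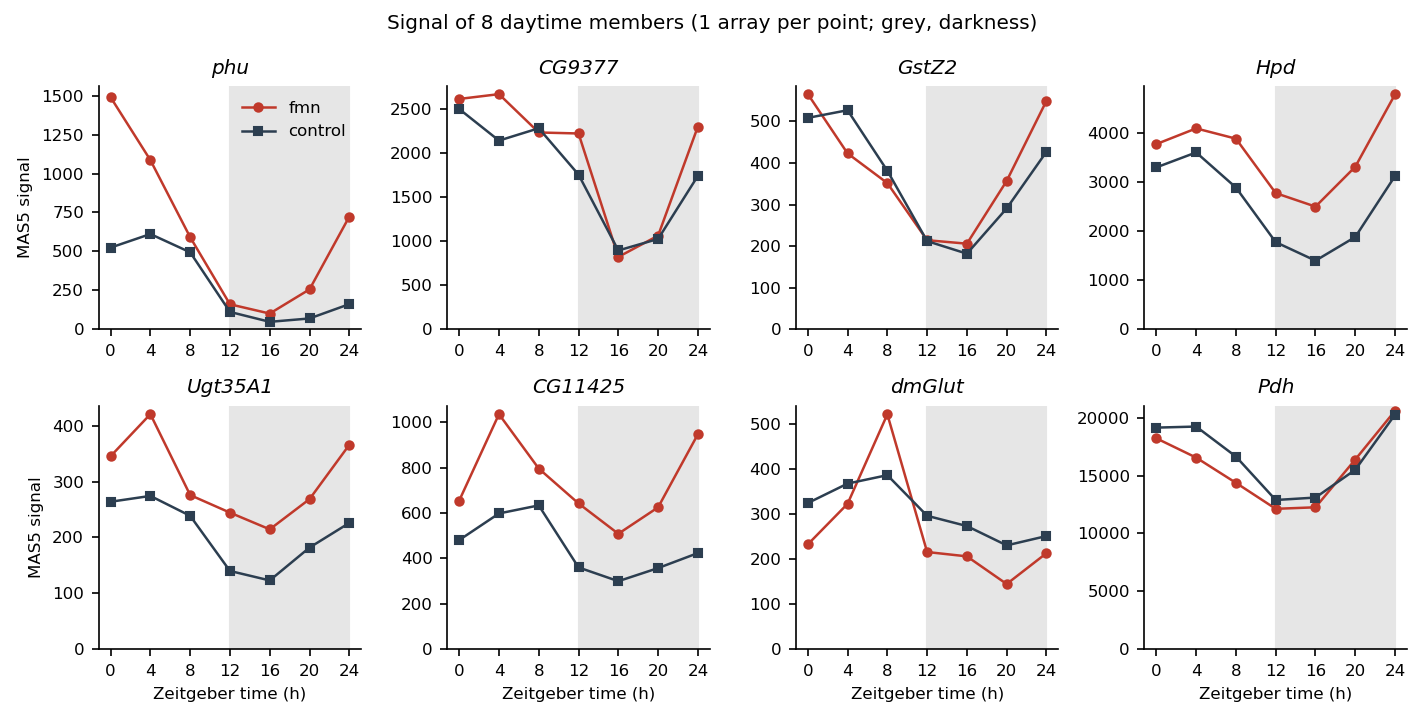
MAS5 signal (linear axis from 0) at ZT 0 to ZT 24 of 8 members, with 1 array per point, fmn in red and control in dark, and the dark phase shaded. The fmn line of phu, Hpd, Ugt35A1 and CG11425 lies above the control line at all 7 times, the lines of CG9377 and GstZ2 cross, and dmGlut has its fmn maximum of 522 at ZT 8.

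Enzymes of tyrosine breakdown formed a pair among the members. Hpd encodes 4-hydroxyphenylpyruvate dioxygenase, and GstZ2 a zeta-class glutathione transferase of the kind that acts as maleylacetoacetate isomerase later in the same pathway. Hpd signals in fmn heads were 3768, 4087, 3878, 2770, 2495, 3307 and 4781 from ZT 0 to ZT 24, and in control heads 3294, 3598, 2884, 1772, 1396, 1878 and 3119. The night trough was deeper in control, and the amplitude was 0.40 ± 0.08 in fmn and 0.71 ± 0.03 in control, with peaks at ZT 2.85 and ZT 3.57. GstZ2 ran through 566, 423, 352, 214, 206, 357 and 550 in fmn heads, and 509, 527, 381, 212, 182, 291 and 427 in control heads. Here the genotypes overlapped, with amplitudes of 0.73 ± 0.09 in fmn and 0.79 ± 0.06 in control. The list of this pathway was drawn up after these values were seen, and 2 of its 6 measured genes were members. Of the others, hgo, the homogentisate dioxygenase, had an amplitude of 0.53 in control with a peak at ZT 5.45 and missed the minimum in fmn with 0.295 (peak ZT 3.11). Tat (tyrosine aminotransferase) had 0.14 in fmn and 0.17 in control, and Faa (fumarylacetoacetase) 0.15 in fmn and 0.12 in control. GstZ1, a second zeta-class gene, had 0.25 in fmn and 0.29 in control, with a peak before dawn at ZT 23.5 in fmn and ZT 21.6 in control.

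Enzymes that conjugate or oxidize foreign and endogenous compounds gave 5 further members, in addition to GstZ2. Of 14 measured UDP-glycosyltransferases, 3 were members (21.4%): Ugt35A1, Ugt49C1 and Ugt302C1. Ugt35A1 signals were 345, 421, 276, 244, 214, 269 and 366 in fmn heads and 264, 274, 239, 140, 123, 182 and 226 in control heads. The lowest values of both genotypes were at ZT 16, and the amplitude was 0.44 ± 0.06 in fmn and 0.59 ± 0.07 in control. Ugt49C1 was lowest at ZT 16 with 756 in fmn and 615 in control, and highest at ZT 4 with 1549 in fmn and 1202 in control. Ugt302C1 was between 926 and 1548 in fmn and between 853 and 1492 in control. All 3 peaked from ZT 2.69 to ZT 2.78 in fmn and from ZT 3.29 to ZT 4.00 in control, but the narrow range in fmn was not kept without the 3 arrays, where Ugt302C1 peaked at ZT 1.69 and Ugt35A1 at ZT 3.37. Ugt36F1, of the same family, met every criterion except the limit on the gap between peaks, with 3.03 h. GstD10, a delta-class glutathione transferase, had an amplitude of 0.31 ± 0.05 in fmn and 0.43 ± 0.03 in control, and with GstZ2 it made 2 of 26 measured glutathione transferase genes. Cyp305a1 was the 1 member of 53 measured cytochrome P450 genes, with 1363 at ZT 16 and 2357 at ZT 4 in fmn, and 1327 at ZT 16 and 2449 at ZT 4 in control.

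Proteins that cleave or resemble enzymes that cleave other proteins were a further group, put together by role after the values were seen. CG9377, a serine protease homolog, had signals of 2615, 2669, 2234, 2223, 821, 1063 and 2301 in fmn heads, and of 2501, 2142, 2282, 1756, 895, 1025 and 1742 in control heads. Its signal thus stayed high until ZT 12 and was low only at ZT 16 and ZT 20 in both genotypes, with amplitudes of 0.83 ± 0.23 in fmn and 0.72 ± 0.19 in control. CG31205, a further serine protease homolog, ranged from 2371 to 4086 in fmn and from 2026 to 3407 in control. CG9649, a serine protease, ranged from 1251 to 2242 in fmn and from 1137 to 1984 in control. CG11951, an aminopeptidase of the M1 family, was lowest at ZT 16 (220 in fmn, 202 in control) and highest at ZT 4 (493 in fmn, 468 in control). Nepl9, which encodes a neprilysin-like protein, had amplitudes of 0.32 in fmn and 0.35 in control.

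The transporters described next were put together by role from the members, after their values were seen. CG1698 belongs to the family of sodium-coupled transporters that includes DAT itself, and its signals were 118, 181, 235, 116, 92.6, 97.6 and 114 in fmn and 146, 181, 163, 100, 92.3, 92.1 and 91.2 in control. Several of these values are under 100, so its trough is set by dim signals. The signals of dmGlut, a glutamate transporter, were 233, 323, 522, 216, 206, 145 and 213 in fmn, and 324, 368, 387, 296, 273, 230 and 251 in control. The fmn maximum of both was on the ZT 8 array, which had the largest gut sum. Without that array the fmn amplitude was 0.52 instead of 0.74 for dmGlut and 0.50 instead of 0.65 for CG1698, while the control amplitudes were 0.35 and 0.52. The glial cystine/glutamate exchanger gb peaked at ZT 4.03 in fmn and ZT 4.33 in control, with amplitudes of 0.36 and 0.33. CG31121 and CG11069, ABC transporters of the white family, peaked at ZT 7.72 and ZT 8.10 in fmn and at ZT 7.37 and ZT 7.26 in control. CG6356, of the family of organic cation transporters, was at 603 at ZT 4 and 347 at ZT 16 in fmn, and at 583 and 322 in control. CG1208 and CG9444, of the major facilitator superfamily, had amplitudes of 0.40 and 0.35 in fmn and of 0.40 and 0.41 in control.

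The 4 members that act on lipids and nucleotides peaked from ZT 4.25 to ZT 4.91 in fmn and from ZT 4.31 to ZT 5.55 in control. The very-long-chain acyl-CoA synthetase gene bgm was lowest at ZT 16 in fmn (2376) and at ZT 20 in control (2711), and highest at ZT 0 in fmn (4723) and ZT 4 in control (5040). Pcyt2, an enzyme of phosphatidylethanolamine synthesis, ranged from 743 to 1375 in fmn and from 888 to 1781 in control. CG11425, a lipid phosphate phosphatase, had signals of 655, 1036, 796, 643, 509, 625 and 948 in fmn, and of 481, 598, 634, 360, 300, 357 and 424 in control, with the fmn value above the control value at every time. Nt5a, a 5'-nucleotidase, ranged from 573 to 1167 in fmn and from 542 to 1098 in control.

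A few members encode proteins of the eye and the cuticle. Pdh encodes the photoreceptor dehydrogenase, a retinol dehydrogenase of the pigment cells that takes part in the visual cycle, and it was the 1 member among 22 measured genes of the light response. Its signals were 18234, 16567, 14383, 12134, 12266, 16401 and 20620 in fmn, and 19160, 19252, 16655, 12897, 13110, 15514 and 20289 in control. The lowest arrays of Pdh were those of ZT 12 and ZT 16 in both genotypes, and its peak was at ZT 0.783 ± 0.573 h in fmn and ZT 2.24 ± 0.285 h in control, though after quantile normalization the fmn peak was at ZT 1.78. The retinol dehydrogenase gene rdhB and pinta, a retinol-binding protein, had larger amplitudes of 0.58 and 0.53 in fmn and 0.49 and 0.59 in control, but peaked at night, at ZT 20.9 and ZT 21.5 in fmn and at ZT 20.3 and ZT 21.2 in control. On the same list, laza missed the amplitude minimum in fmn (0.26, control 0.31), with peaks at ZT 2.51 in fmn and ZT 2.96 in control. The gene inaC missed it in control (0.25, fmn 0.32), with peaks at ZT 1.87 in fmn and ZT 3.86 in control. Cpr72Ec, a protein of cuticle and corneal lens, ranged from 3003 to 5848 in fmn and from 2170 to 3976 in control. Gasp, a chitin-binding protein, peaked at ZT 4.68 in both genotypes, with amplitudes of 0.45 in fmn and 0.48 in control. TwdlT, a cuticle protein of the Tweedle family, lay closest to the amplitude minimum, with 0.304 in fmn.

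Other members have signaling, cytoskeletal and regulatory roles. Buffy, of the Bcl-2 family of cell death regulators, had signals of 380, 613, 599, 576, 368, 386 and 422 in fmn and of 414, 658, 573, 585, 329, 363 and 371 in control, a plateau from ZT 4 to ZT 12 in both. The bHLH factor tx peaked at ZT 8.67 in fmn and ZT 7.59 in control, and kra, which resembles a translation initiation factor, at ZT 7.80 in fmn and ZT 7.97 in control. RabX5, a small GTPase, ranged from 121 to 233 in fmn and from 115 to 233 in control. The 2 probe sets of Ca-Ma2d, an auxiliary subunit of voltage-gated calcium channels, peaked at ZT 5.47 and ZT 7.13 in fmn and at ZT 7.79 and ZT 7.85 in control. Fs encodes follistatin, which binds activin ligands, and its signals were 355, 404, 352, 347, 253, 231 and 329 in fmn, and 465, 539, 544, 548, 397, 331 and 435 in control. Swip-1, an actin-binding protein, and wac, a subunit of the augmin complex that nucleates microtubules, peaked at ZT 5.09 and ZT 4.61 in fmn and at ZT 6.17 and ZT 5.83 in control. NimC3, of the Nimrod family of phagocytosis receptors, ranged from 109 to 257 in fmn and from 138 to 261 in control. Lmpt, a LIM domain protein, was at 76.3 to 180 in fmn and 92.9 to 162 in control, and its fmn peak was at ZT 0.620 ± 1.19 h.

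The remaining genes have no role that could be stated with certainty. CG6834 and CG9498 belong to a family of kinase-like proteins, and peaked at ZT 5.18 and ZT 5.72 in fmn and at ZT 5.42 and ZT 4.13 in control. CG15213 was represented by 2 probe sets, of which 1631522_x_at is of a kind that can bind related transcripts. The signals of 1631522_x_at ranged from 95.5 to 222 in fmn and from 119 to 311 in control, and those of 1627583_at from 98.2 to 243 in fmn and from 143 to 275 in control. Both were lowest at ZT 16 in both genotypes. CG31321 ranged from 323 to 825 in fmn and from 377 to 802 in control, and CG1136 from 340 to 794 in fmn and from 361 to 838 in control. CG14132, CG18598, CG42326, CG16959, CG6983, CG32407, CG9616, firl and CG5793 had amplitudes from 0.32 to 0.46 in fmn and from 0.36 to 0.59 in control. The unnamed 1626597_at, 1625219_at and 1637510_s_at had amplitudes of 0.37, 0.36 and 0.34 in fmn and of 0.56, 0.38 and 0.34 in control.

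The peaks of a member were set within 3 h of each other by the rule, and within that limit 41 of 58 members (70.7%) peaked earlier in fmn than in control, and the median gap of fmn minus control was −0.392 h. The standard error of a single peak was about as large or larger, with a median of 0.658 h in each genotype. The gap exceeded 2 times its combined standard error for 4 members: phu (−1.74 h), GstZ2 (−1.38 h), Pdh (−1.46 h) and CG9498 (1.59 h). These 4 were picked out after their values were seen, from peak times that the rule had used, so the cutoff is no test of a shift. The share of other rhythmic probe sets past this cutoff was not computed. The count depended on the arrays used, with 0 members without ZT 20 in both genotypes and 8 without ZT 0. Under quantile normalization Pdh peaked at ZT 1.78 in fmn and ZT 2.11 in control. In members with a control peak before ZT 4, 16 of 20 were earlier in fmn. The counts were 13 of 18 with a peak from ZT 4 and 12 of 20 with a peak from ZT 6. The rule set the window on the control peak only, so the fmn peak could fall outside it. It did so for 5 members before ZT 2 and for 4 at or after ZT 8. Whether this choice adds to the share of members earlier in fmn was not tested. All members were measured on the same arrays, so these counts are not of independent observations. Among probe sets that met the same rule in other windows, 44.2% of 43 with a control peak at dusk, 38.7% of 31 at night and 58.5% of 82 at dawn were earlier in fmn, and the differences between windows were not tested. The 3 arrays with transcripts of other organs fall in the daytime of fmn and at the dawn of control. Without them 39 of 58 members were earlier in fmn, with a median gap of −0.389 h, and without the control ZT 0 array alone 48 of 58, with a median gap of −0.643 h. Without the fmn ZT 4 array alone 40 members were earlier, with a median gap of −0.220 h, and without ZT 8 in both genotypes 38, with −0.249 h. The amplitude was smaller in fmn for 36 of 58 members, with a median ratio of fmn over control of 0.956.

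**Figure D4:**
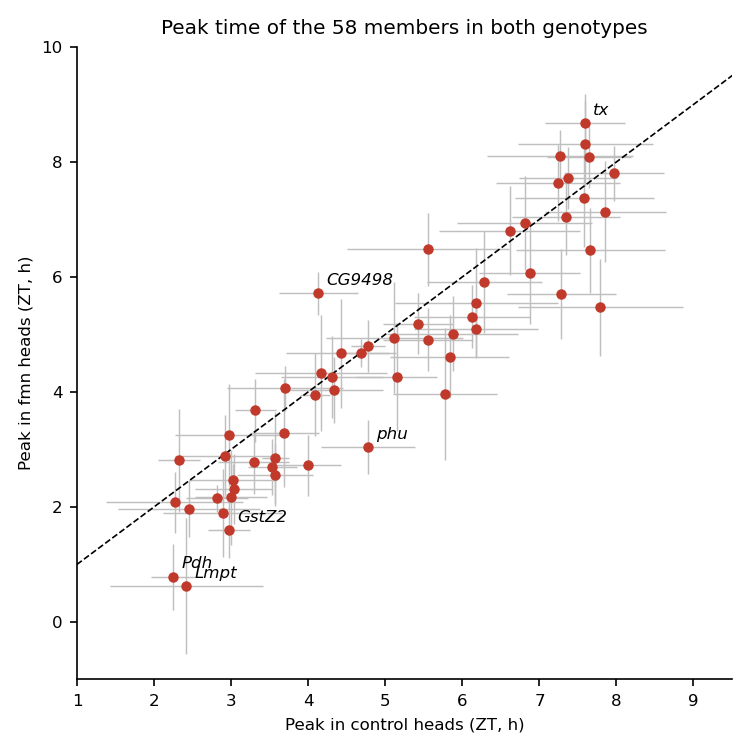
Fitted peak time of each of the 58 members in fmn heads (vertical axis) against control heads (horizontal axis), in hours of ZT, with bars of 1 standard error of the fit and a dashed line at equal times. Of the points, 41 lie below the line, and the bars have a median length of 0.658 h to each side.

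Several gene lists of metabolism and stress held no member. At the background share of 0.664%, a list of this size would be likely to hold none, so nothing about the members is read from these counts, and the lists do not hold every gene of their pathway (bgm, Pcyt2 and CG11425 are not on the lipid list, nor CG1208 and CG9444 on that of solute carriers). None of the 24 measured genes of sugar digestion and metabolism, 21 of fatty acid and lipid metabolism, 12 of heat shock, 15 of endoplasmic reticulum folding, 18 of ribosome biogenesis, 13 antioxidant genes, 8 transcription factors induced by activity and light, 18 clock outputs or clock neuron genes, 12 solute carriers of the MFS and Oatp lists and 23 odorant binding genes was a member. An amplitude of at least 0.5 was not common: 15.5% of the members reached it in both genotypes, against 39.5% at dusk, 29.0% at night and 37.8% at dawn, without a test of the difference.

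By chromosome arm, 23 of the 53 genes lay on 3R (43.4%, against 25.0% of all measured genes), 16 on 3L (30.2% against 19.1%), 9 on 2L and 5 on 2R. None lay on the X chromosome, which holds 16.5% of the measured genes and 17.5%, 20.0% and 15.3% of those that met the rule with a peak at dusk, at night and at dawn. These shares are a description of a chosen list and were not tested. In 6 pairs, members lay within 10 genes of each other along an arm: CG31121 and CG11069, and bgm and NimC3, were adjacent, phu and GstZ2 were 2 genes apart, Cpr72Ec and Pdh 4, Ugt35A1 and Ugt302C1 5, and CG9649 and CG9616 7.

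The edges of the rule were close for several members. On the inner side, the lowest mean signal was that of CG31121 (119), the lowest control amplitude that of Lmpt (0.310), the lowest R2 that of 1626597_at in fmn (0.714) and of 1637510_s_at in control (0.718), the widest gap between peaks that of Ca-Ma2d 1624056_a_at (2.32 h), the earliest control peak that of Pdh (2.24) and the latest that of kra (7.97). Just outside were Jhe with a mean signal of 96.9, hgo with an fmn amplitude of 0.295, DCX-EMAP with a control amplitude of 0.295, obst-A with an fmn R2 of 0.686, CG10962 with a control R2 of 0.677, b6 with a control peak at ZT 1.84 and CG8630 at ZT 8.19. Further probe sets measured 2 of the member genes with a mean signal of at least 100. The second probe set of Fs (1632824_at) peaked at ZT 6.63 in fmn and ZT 6.99 in control, within 3 h of the member. Of the 2 others of Lmpt, 1629499_at peaked within 3 h of the member in both genotypes (ZT 22.6 in fmn, ZT 1.30 in control), while 1636953_a_at peaked at ZT 7.72 in fmn and ZT 9.14 in control. The last was the brightest Lmpt probe set, with a mean signal of 2215, against 771 for 1629499_at. The Lmpt member averaged 126 in fmn and 124 in control. Each of these further probe sets missed the amplitude minimum in control, with 0.26 for Fs 1632824_at, 0.24 for 1629499_at and 0.18 for 1636953_a_at. In fmn their amplitudes were 0.46, 0.36 and 0.24.

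The difference in daily mean between genotypes was not used by the rule and was tested with limma over all 8732 probe sets, with a call at an adjusted p under 0.05 and a difference of at least 0.32 on the log2 scale. Without a term for time, 323 probe sets were higher in fmn (3.7%) and 321 lower (3.68%). Of the members, 2 were higher, CG9616 and CG11425, and 1 was lower, Fs, which is 3.45% and 1.72% of 58. CG9616 averaged 352 ± 64.3 in fmn and 221 ± 44.8 in control (SD over 7 arrays, which includes the daily change), a log2 difference of 0.66 ± 0.14 (limma, adjusted p = 0.00392). CG11425 averaged 745 ± 190 in fmn and 451 ± 127 in control, a difference of 0.72 ± 0.19 (adjusted p = 0.0163), and its call was lost without the 3 arrays (0.62) and without ZT 24 in both genotypes (0.64). Fs averaged 324 ± 61.2 in fmn and 466 ± 83.7 in control, a difference of −0.54 ± 0.14 (adjusted p = 0.0146). The members' own daily change enters the error of this fit: their median standard error was 0.168, against 0.0677 over all probe sets.

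With the time point as a block, which compares the fmn and control arrays of the same time, 359 probe sets were higher in fmn (4.11%) and 351 lower (4.02%), and of the members 7 were higher (12.1%) and 5 lower (8.62%). The members had been selected to cycle alike in both genotypes, which bears on their errors in this fit, with a median of 0.0555 against 0.0554 over all probe sets, so these shares are not set against the background as a result. The higher members were phu, with a log2 difference of 1.16 ± 0.22 (limma with the block, adjusted p = 0.00607), Hpd (0.52 ± 0.09, adjusted p = 0.00439), Ugt35A1 (0.57 ± 0.08, adjusted p = 0.00132), Ugt49C1 (0.34 ± 0.06, adjusted p = 0.00303), Cpr72Ec (0.43 ± 0.05, adjusted p = 0.000635), CG11425 and CG9616. The lower ones were Fs, wac (−0.36 ± 0.05, adjusted p = 0.0011), 1626597_at (−0.53 ± 0.09, adjusted p = 0.0034) and both probe sets of CG15213 (−0.41 ± 0.04 for 1631522_x_at and −0.33 ± 0.06 for 1627583_at, adjusted p = 0.000438 and 0.00382). Each of these 12 differed in 1 direction at all 7 times. The study reported a falsely low fmn signal for the integrin gene scb, from a base substitution under its probe set. RT-PCR there showed no difference in scb mRNA, and the backcross had apparently not made the region of scb and DAT alike in both strains. Whether sequence differences under the probes contribute to these 12 differences was not tested. Without the 3 arrays, 10 of the 12 were still called with the block, and CG15213 1627583_at (adjusted p = 0.118) and 1626597_at (adjusted p = 0.056) were not. In Hpd, phu and Ugt35A1 the mean was 3584 ± 788, 630 ± 516 and 305 ± 73.9 in fmn and 2563 ± 864, 289 ± 244 and 207 ± 59.6 in control.

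The called members lay in both directions. Without the block, 3.45% of members were called higher and 1.72% lower, not above the 3.7% and 3.68% of all probe sets. The median difference of the 58 members was 0.02, against −0.02 over all probe sets tested, and 34 of 58 differences were positive. At least 0.32 (log2) apart were 12 members (20.7%), against 9.04% of all probe sets. These were the same 12 that were called with the block, with CG15213 counted by both its probe sets. The difference between these shares was not tested. The 3 glycosyltransferases did not move as a group: Ugt302C1 averaged 1277 ± 232 in fmn and 1256 ± 267 in control, a difference of 0.02. Of the tyrosine pair, GstZ2 averaged 381 ± 144 in fmn and 361 ± 137 in control, a difference of 0.07 (limma with the block, adjusted p = 0.594). The summed signal of the photoreceptor markers was 42535 to 53110 on the fmn arrays and 53707 to 63420 on the control arrays. That of the glial markers was 15593 to 18268 on the fmn arrays and 18364 to 20529 on the control arrays. These sums weigh the brightest genes most. Taken over all times, the range of the median log2 signal of each list overlapped between genotypes. It was 13.34 to 13.66 in fmn and 13.61 to 13.98 in control for photoreceptor markers. For glial markers it was 10.40 to 10.70 in fmn and 10.41 to 10.81 in control. Compared at the same ZT, the photoreceptor median was lower in fmn than in control at every time. The glial median was lower in fmn at every time except ZT 16, with 10.68 in fmn and 10.41 in control. The part of these markers in the differences of members was not tested. No pool was repeated within a time. A p value of the fit without a block therefore measures the spread between arrays of different times. With the block, it measures the spread of the fmn minus control difference from time to time.

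**Figure D5:**
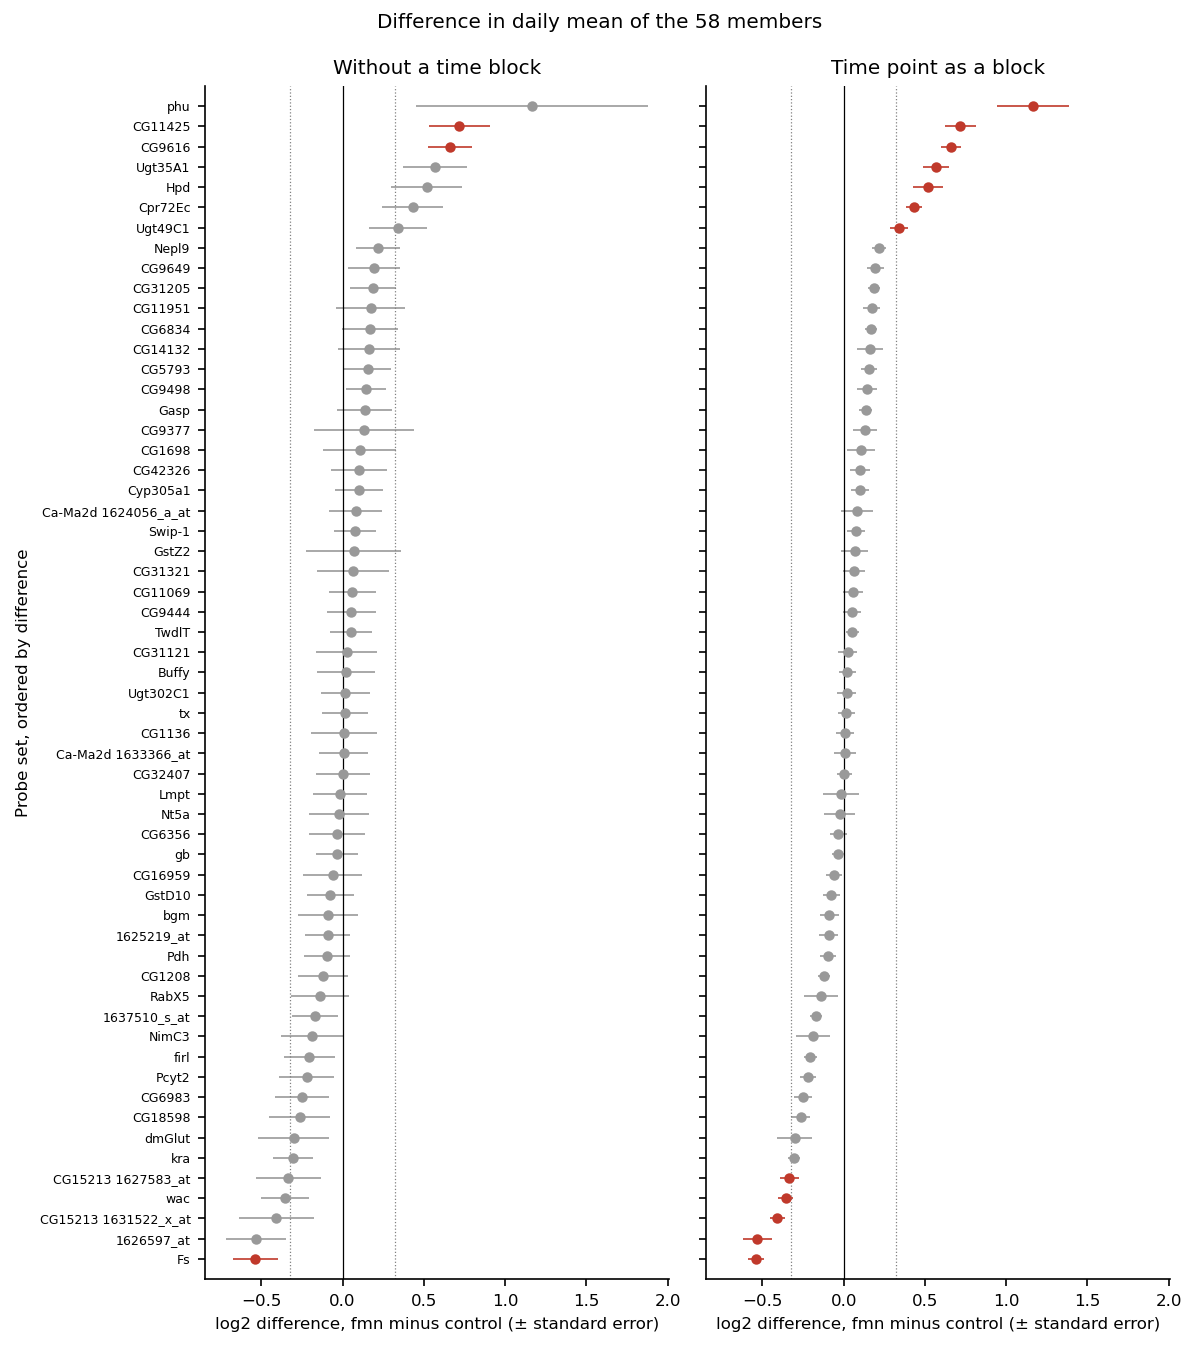
Difference in daily mean of each of the 58 members, fmn minus control on the log2 scale, with bars of 1 standard error from limma without a term for time (left) and with the time point as a block (right); dotted lines mark a difference of 0.32 and members called are in red. CG9616, CG11425 and Fs are called on the left, and 12 members on the right, from −0.54 for Fs to 1.16 for phu.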

How the data were processed

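The authors labeled total RNA of pooled heads, hybridized it to Affymetrix Drosophila Genome 2.0 arrays and deposited the intensity of each probe set on a linear scale, as given by the MAS5 algorithm (version not given in the sources used here). Present calls and the later normalization of the study were not analysed here. Of the probe sets, 183 controls were left out, 13647 named 1 gene, 402 several and 4720 none; symbols of 13544 were updated with RefSeq genes (Release 6), used for names and gene order only. Intensities were converted to log2. Rhythms were fitted by least squares without scaling of the arrays. Genotypes were compared with limma 3.58.1 in R 4.3.3 on values centred on each array's 75th percentile, with Benjamini-Hochberg adjustment over all probe sets with a mean signal of at least 100. Scripts were tested on simulated data. Members, lists and tests were chosen with earlier results of these data known. Named in full were the 10 members of largest mean amplitude, members of gene lists, those past the genotype test and those at the thresholds; other members were named to account for all. The lists of tyrosine breakdown and white family transporters were added after the values were seen. The alternatives changed the scaling, filter, thresholds, test, block and arrays used.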

Additional observations from a re-analysis of the deposited data

How the results depend on the processing

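Each time point has 1 array per genotype, and signals near 100 are close to the dim end of the array, which limits what can be said of members such as CG1698 and CG31121. The number of members was 58 and depended on the amplitude minimum, with 109 at a minimum of 0.2 and 28 at 0.4. It was between 43 and 68 when 1 time point was left out in both genotypes, lowest without ZT 16, and 61 without the fmn arrays of ZT 4 and ZT 8 and the control array of ZT 0, of which 47 were among the 58. Of the 58, 23 were kept under both other scalings and with each time point left out. Without these 3 arrays the fmn fit has 5 arrays and none at ZT 4 or ZT 8.

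For all probe sets, 323 were higher and 321 lower in fmn. With median centring of the arrays 200 were higher and 283 lower, and with the time block and without the 3 arrays 190 were lower. With 1 time point left out, 273 to 361 were higher and 284 to 356 lower. Of members, 2 were higher and 1 lower. The higher ones were 7 with the time block as with the cosine and sine as covariates, with the block under quantile normalization and with the block without the 3 arrays, 6 with the block without ZT 24, and 1 without a filter on signal, without the 3 arrays and without ZT 24. The lower ones were 5 with the block, with the cosine and sine and with the block under quantile normalization, 4 with the block without the 3 arrays, 6 with the block without ZT 24, 2 under median centring, under quantile normalization and without the 3 arrays, and 0 without a filter on signal, where no member kept its call except CG9616. With 1 time point left out, 1 to 2 members were higher and 1 to 3 lower, 3 of them without ZT 16. In fits without a block, CG11425 lost its call without ZT 24 (0.64), without the 3 arrays (0.62) and without a filter, and Fs without a filter. With the block and without the 3 arrays CG11425 was called (0.89). None of the 12 members called with or without the block changed direction under any alternative run, while 6 uncalled members with small differences changed sign with the block and without the 3 arrays. The block for time points as pairs rests on labels of time: the arrays of 1 time deviated together with correlations from −0.377 (ZT 0) to 0.488 (ZT 24) over probe sets with a mean of at least 100, and from 0.113 to 0.481 over those with a signal of at least 100 on 8 arrays. The combined fits with the block, and those without a single array, were chosen after seeing the data. The cause of these changes was not tested. The shares of promoter motifs planned with their alternative window were not run, since no promoter sequences were used here.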
